A study of Mus musculus with 24 samples.

Results

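The genes described here are 10 genes of the muscle atrophy program: Foxo1, Foxo3, Trim63, Fbxo32, Fbxo30, Mstn, Acvr2b, Nedd4, Sqstm1 and Bnip3. They are 10 of the 21774 protein-coding genes on the mm10 chromosomes, and H3K27ac peaks were assigned to them where a peak overlapped the gene body by 1 bp or lay within 10 kb of any RefSeq start of the gene. By this rule they held 512 of the 469078 peaks in the 8 deposited peak lists. The rule uses gene names and positions and no measured value.

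H3K27ac is a histone mark of active enhancers and promoters, and it was measured by ChIP-Seq in myofibers isolated from the quadriceps of C57BL/6 mice (C57BL/6J in the study's methods), males and females. Mice were 10 weeks of age at the first injection. In the study's general scheme, treated mice received 1 mg/kg prednisone, a glucocorticoid, on 1 day of each week and vehicle (DMSO in PBS) on the other days. Vehicle mice received DMSO in PBS. The methods give 5 prednisone injections in all for 4-week treatments that ended 2 days after the last one. The mice used here were also treated for 4 weeks, but their number of injections is not given separately. The legend for their schedule marks times without injection, so daily injection throughout is not stated for them. Treated mice were studied when 4, 6 or 8 days had passed since their last prednisone injection. Each sex had 1 vehicle group and 3 treated groups. Each group had 2 H3K27ac libraries and 1 input library but 1 peak list, so none of the comparisons between groups below has a replicate error or a test, and the intervals given cover counting error only.

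Muscle loses mass when protein breakdown outruns synthesis, and much of that breakdown runs through ubiquitin ligases, which tag proteins for the proteasome, and through autophagy. FoxO transcription factors switch on ligase and autophagy genes when signaling through insulin, IGF1 and PI3K is low, and the glucocorticoid receptor can bind beside them. Myostatin, a secreted factor made by muscle itself, signals through activin receptors and SMAD proteins to restrain muscle growth.

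The lists differed in depth and in length before any gene was considered. H3K27ac depth ranged from 7.52 M tags (male day 4) to 50.5 M tags (male day 6), the number of peaks from 17482 (male day 4) to 123249 (female day 6), and the share of all tags that lay in peaks from 5.39% (male day 6) to 47.3% (female day 6). Of 10 myofiber marker genes, between 7 and 10 had a peak over a start in each list, and 7 had one in all 8 lists. Markers of other cells moved with the lists: satellite cell genes with a start peak numbered 0, 2, 3 and 3 of 3 in female vehicle and at female days 4, 6 and 8, against 1, 0, 0 and 0 in the male lists, endothelial genes 1, 4, 4 and 4 of 4 against 4, 1, 4 and 1, fibroblast genes 1, 3, 3 and 3 of 4 against 2, 1, 1 and 0, and immune genes 0, 0, 2 and 2 of 4 against 0 in every male list. Adipocyte genes had a start peak only at female days 6 and 8, 1 of 3 in each, and Ptprc, Itgam, Lum and Adipoq had none in any list. Of 3 genes of tissues not in the sample, Ins2 had a start peak in the 2 longest lists, female day 6 (14.4 tags per kb of peak) and male vehicle (23.4), and Alb and Neurod1 had none. The part of other cell types in the values below was not tested, and in a bulk sample fewer nuclei with the mark and less mark per nucleus cannot be told apart. Xist had a start peak in 3 of the 4 female lists and in 0 male lists, and of 4 genes on the Y chromosome 2 had one in 1 male list and 0 in the female lists.

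Nearly all atrophy program genes carried H3K27ac at a start. A peak lay within 1 kb of a RefSeq start for 9 of the 10 genes in female vehicle, where 30.2% of all protein-coding genes had one, and for 10 of 10 at female days 4, 6 and 8, where 54.3%, 69.3% and 62.1% of genes did. In males it was 10 of 10 in vehicle (55.7% of genes), 8 of 10 at day 4 (32.0%), 9 of 10 on day 6 (32.4%) and 10 of 10 on day 8 (35.4%). The exceptions were Acvr2b, which lacked a start peak in female vehicle and at male days 4 and 6, and Mstn, which lacked one at male day 4. Every list was also reduced to its 17482 peaks of highest score, as given by the peak caller. This left a start peak at 8, 7, 6 and 5 genes in female vehicle and at days 4, 6 and 8. In the male lists it was left at 10, 8, 9 and 10. The score did not follow the tags of a peak. At female day 8 the Fbxo30 start peak had a score of 16, the lowest in its list, but lay at the 97.7th percentile of tags. The cut thus need not keep the strongest start peaks, and its lower female counts do not show a weaker mark. The same limit holds for the other counts at equal list length below. With a fold over input of at least 4, male day 6 had 5 in place of 9. In the uncut lists the 8 genes other than Acvr2b and Mstn had a start peak in all 8 lists. So had 17.1% of all protein-coding genes, and 25.1% of all genes had one in no list. Counting any peak over the gene body or within 10 kb of a start, all 10 genes had a peak in every list (54.8%, 71.6%, 78.7% and 73.6% of genes in the female lists and 75.5%, 50.9% and 49.3% in male vehicle and at male days 6 and 8) but male day 4, where 9 had one (46.4% of genes).

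The start base itself was under a peak less often. It was covered at 3 of 10 genes in female vehicle (17.0% of genes), 9 at day 4 (46.7%), 9 on day 6 (62.8%) and 10 on day 8 (56.5%), and in males at 7 in vehicle (42.0%), 6 at day 4 (21.9%), 8 on day 6 (21.5%) and 9 on day 8 (5889 of 21774 genes). Foxo1, Nedd4 and Sqstm1 had it covered in all 8 lists, whereas Trim63 and Mstn had it covered in 3 lists each and Acvr2b in 4.

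**Figure D1:**
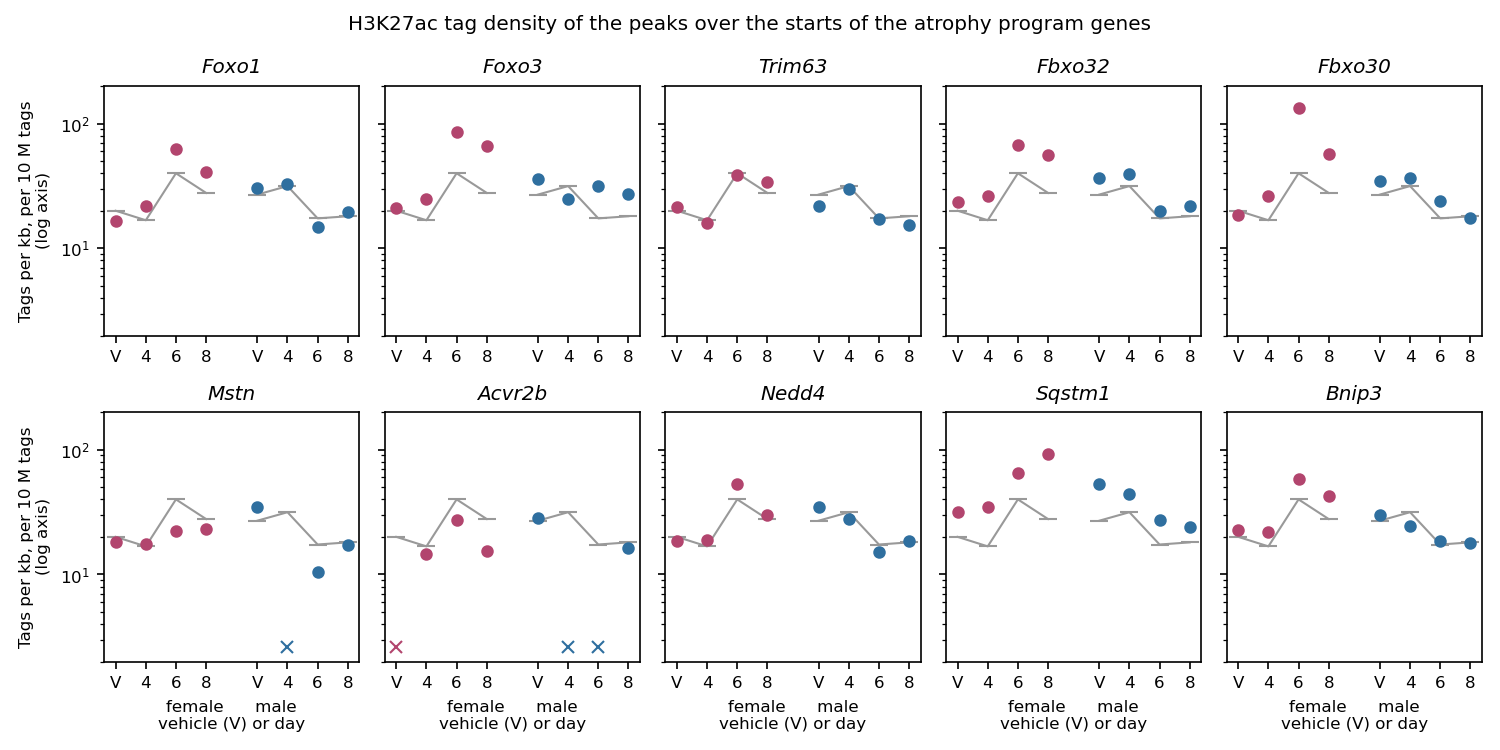
H3K27ac tag density of the peaks over the starts of each of the 10 genes (y axis, tags per kb of peak scaled to 10 M tags, log axis) in the vehicle (V), day 4, day 6 and day 8 lists of females (red) and males (blue). Grey marks joined by lines are the medians over all genes with a start peak in that list, and crosses at the bottom mark lists with no start peak, which were 3 for Acvr2b and 1 for Mstn.

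Trim63 encodes MuRF1, a ubiquitin ligase of the sarcomere and a standard marker of atrophy. It lies on the plus strand at chr4:134315120-134329629 (mm10), with 1 start. The 250 bases before that start are shown because this was the only promoter of the genes examined that held a match to the glucocorticoid response element (GRE) or to the FoxO site. The sequence is the RefSeq promoter of Trim63 at chr4:134314870-134315119 (GRCm38.p6, plus strand), with the GRE match and the FoxO match in capitals.
Trim63 promoter: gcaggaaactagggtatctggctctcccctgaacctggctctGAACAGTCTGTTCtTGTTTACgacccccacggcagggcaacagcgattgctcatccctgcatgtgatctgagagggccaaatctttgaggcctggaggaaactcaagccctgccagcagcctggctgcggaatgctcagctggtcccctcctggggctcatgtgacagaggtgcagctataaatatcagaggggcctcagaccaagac
The half-site pair of the glucocorticoid receptor was searched as ACANNNTGT, and the full-length GRE as the same pair flanked on each side by any base and then by G before it and C after it. The FoxO site was searched as GTAAACA. Both strands were read for each. In the Trim63 promoter the full-length match began 208 bp before the start and the FoxO match 194 bp before it, with 1 base between them, so the half-site pair and the full-length match are the same site. Of the 21263 RefSeq promoters of this length, 5.19% held the half-site pair, 0.357% the full-length GRE and 2.62% the FoxO site.

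The sequence with both matches was under a peak at female days 6 and 8 and in none of the other 6 lists. In female vehicle the 2 peaks nearest the Trim63 start were 500 bp each and lay on either side of it, with near edges at -410 bp and 686 bp from the start, where negative distances are upstream. At female day 4 the flanking peaks were 5211 bp and 2803 bp long, with near edges at -468 bp and 219 bp. At female days 6 and 8 a single peak of 13678 bp and 13886 bp ran across the start, the promoter and both flanks.
The 4 male lists had short peaks beside the start. The near edges in male vehicle were at -519 bp and 474 bp, and those at male day 4 at -585 bp and 495 bp. At male day 6 only the upstream peak was within 1 kb of the start, and at male day 8 a peak of 973 bp covered the start but not the GRE.

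In normalized tags (per 10 M), the strongest start peak of Trim63 by findPeaks score, the score of the peak caller, held 9.45 (95% Poisson interval 6.17 to 13.8) in female vehicle and 77.8 (70.2 to 86.0) at day 4. At day 6 it held 527 (501 to 553) and at day 8 472 (451 to 494). In males it held 26.6 (21.2 to 32.9) in vehicle, 33.3 (21.5 to 49.1) at day 4, 13.8 (10.8 to 17.5) on day 6 and 15.0 (11.03 to 19.8) on day 8. Some lists had 2 start peaks at Trim63, and the one of higher score did not always hold more tags. Together the 2 held 21.45 tags in female vehicle, 127.8 at female day 4, 57.0 in male vehicle and 49.3 at male day 4. The tags of female days 6 and 8 were far above those of the other lists by either count, but most of this was length. Per kb of peak, Trim63 had 21.5, 16.0, 38.5 and 34.0 tags in female vehicle and at days 4, 6 and 8, against medians of 20.02, 16.8, 39.96 and 27.8 over all genes with a start peak. In males it had 21.8, 30.1, 17.04 and 15.4, against 26.97, 31.6, 17.4 and 18.1. The density of Trim63 thus lay between the 44.0th and 65.2nd percentile of genes in 6 lists and lower in male vehicle (22.6th) and at male day 8 (26.7th). Its longest start peak was longer than that of 96.9% of genes at female day 6 and of 98.4% at day 8.

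**Figure D2:**
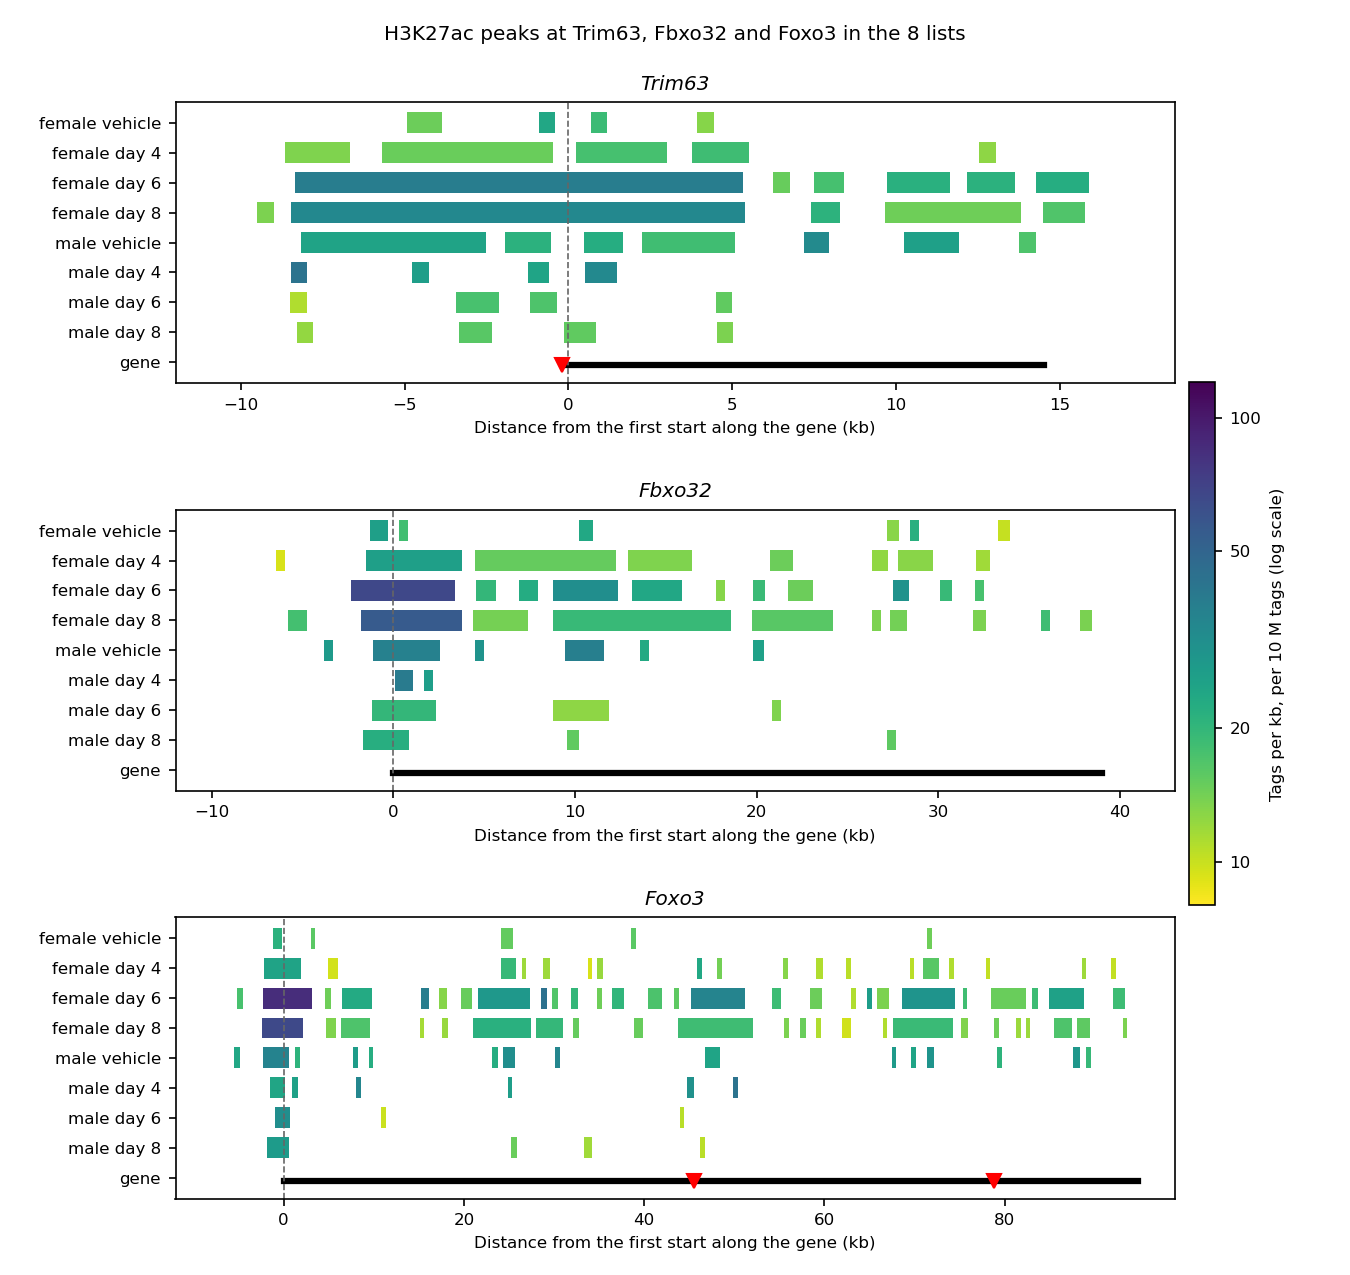
Peaks (colored bars) at Trim63, Fbxo32 and Foxo3 in the 8 lists, by distance along the gene from its start (x axis, kb), with color giving the tag density per kb of peak (log scale), the black line the gene and red triangles the full-length GRE matches that lay under a peak of any list. At Trim63 the peaks of female days 6 and 8 ran across the start and the GRE match without a break, whereas those of the other lists left the match uncovered.

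Fbxo32 encodes atrogin-1, the substrate-binding part of another muscle ubiquitin ligase and the second standard marker of atrophy. It lies on the minus strand at chr15:58175879-58214892. The density per kb was 23.5 in female vehicle, 26.2 at day 4, 66.8 on day 6 and 55.8 on day 8, and 36.7 in male vehicle, 39.3 at day 4, 19.9 on day 6 and 21.9 on day 8. In each list this was above the median gene, from the 68.1st percentile (male day 6) to the 93.7th (female day 8) of genes with a start peak. The strongest start peak was 984 bp in female vehicle, between 5291 bp and 5744 bp in the 3 treated female lists, and 3712 bp, 982 bp, 3551 bp and 2537 bp in male vehicle and at male days 4, 6 and 8. A block of intronic peaks from about 4 kb into the gene, at chr15:58196326-58210486, was marked in 7 lists, all but male day 4. Within it the largest peak held 18.9 tags (14.1 to 24.8) in female vehicle, 118 (109 to 128) at day 4, 113 (101 to 126) on day 6 and 190.1 (177 to 204) on day 8. In males it held 80.0 (70.5 to 90.5) in vehicle, 39.0 (33.7 to 44.8) at day 6 and 9.66 (6.57 to 13.7) at day 8. The largest peak thus held more tags in each treated female list than in female vehicle and fewer at male days 6 and 8 than in male vehicle. Its length differed as well, with 795 bp in female vehicle and 7743 bp, 3546 bp and 9804 bp at days 4, 6 and 8. In male vehicle and at male days 6 and 8 it was 2123 bp, 3089 bp and 625 bp. More tags in this block thus do not show more tags per kb.

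Fbxo30 encodes the ubiquitin ligase part also known as MUSA1, which BMP signaling holds down in muscle. It lies on the plus strand at chr10:11281330-11305750 and its start had a peak in each list. Its density was 18.7 per kb in female vehicle, 26.1 at day 4, 133 on day 6 and 57.2 on day 8. In males it was 34.7 in vehicle, 36.6 at day 4, 24.1 on day 6 and 17.6 on day 8. The female day 6 value was the highest start density of any of the 10 genes in any list and came from a peak of 2137 bp. Its fold over input at female day 8, 60.3 (29.1 to 151), was the highest of the strongest start peaks of all 10 genes. Away from the start Fbxo30 had little, with 1 or 2 peaks in each list in all.

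Nedd4 encodes a HECT-domain ubiquitin ligase with membrane proteins among its substrates, which is raised in disused muscle. It lies on the plus strand at chr9:72662331-72749851, has 3 RefSeq starts, and had between 7 (male day 4) and 26 (female day 6) peaks. Over its starts the density was 18.5, 18.8, 53.2 and 30.1 per kb in female vehicle and at days 4, 6 and 8, and 34.7, 28.1, 15.2 and 18.7 in male vehicle and at days 4, 6 and 8. The summed length of those peaks was 7139 bp in female vehicle, 20465 bp at day 4, 9539 bp on day 6 and 21031 bp on day 8, with single peaks of 14928 bp at day 4 and 15552 bp at day 8. Nedd4 was the only gene with 2 regions marked in all 8 lists, at chr9:72660638-72666583 and chr9:72685686-72704659, each over starts of its own.

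Foxo1 and Foxo3 encode the FoxO factors that drive ligase and autophagy genes in muscle. Foxo1 lies on the plus strand at chr3:52268337-52350109 and Foxo3 on the minus strand at chr10:42181845-42276695, and each has 1 start. The start density of Foxo1 was 16.7, 22.0, 62.2 and 41.3 per kb in female vehicle and at days 4, 6 and 8, and 30.5, 32.7, 14.9 and 19.7 in the male lists in the same order. That of Foxo3 was 21.2, 24.99, 85.1 and 66.0 in the female lists and 35.8, 24.8, 31.8 and 27.5 in the male lists. In female vehicle both genes lay lower, at the 21.5th and 59.0th percentile of genes with a start peak, than at female day 8, where they lay at the 78.9th and the 97.4th. Foxo3 was also at the 99.0th percentile at male day 6, so it kept a dense start peak (50.2 tags, 44.3 to 56.8) in the list with the smallest share of tags in peaks. At male day 4 it was at the 16.8th percentile.

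Introns held most of the peaks of both genes. Foxo3 had 5, 18, 27 and 23 peaks in female vehicle and at days 4, 6 and 8, and 15, 6, 3 and 4 in the male lists. Foxo1 had 5, 7, 21 and 16 in the female lists and 8, 1, 6 and 4 in the male lists. Apart from its start, Foxo3 had 2 regions that were marked in 7 lists, at chr10:42249290-42255708 and chr10:42224617-42233342, and 4 regions that were marked at female days 4, 6 and 8 and in no other list. Foxo1 had 37 separate regions, of which 26 were marked in a single list. Over all 10 genes 62 of 136 regions were marked in a single list, and regions were not formed for other genes.

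**Figure D3:**
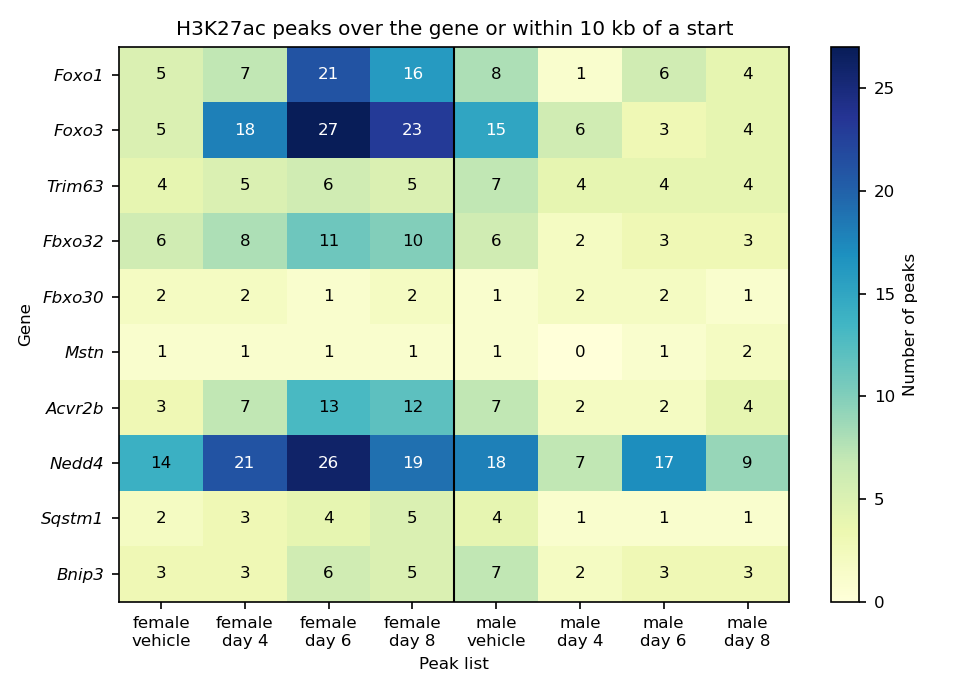
Number of H3K27ac peaks over each gene or within 10 kb of its start (color and digits) for the 10 genes (rows) in the 8 lists (columns, females left of the line). Foxo1, Foxo3 and Nedd4 had the most peaks and reached 21, 27 and 26 at female day 6, and Mstn had 0 to 2 in every list. The same genes had the longest stretches searched, 91.8 kb, 104.9 kb and 97.5 kb, and Mstn the shortest. The counts were not divided by this length.

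Mstn encodes myostatin and Acvr2b one of its activin type 2 receptors. Mstn lies on the plus strand at chr1:53061640-53068079. Its promoter is shown as the contrast to that of Trim63, since it held neither a match to the half-site pair nor one to the FoxO site. It held a match to the SMAD site, CAGACA, which began 120 bp before the start and is in capitals, as did 15.2% of promoters. The sequence is at chr1:53061390-53061639 (RefSeq, GRCm38.p6, plus strand).
Mstn promoter: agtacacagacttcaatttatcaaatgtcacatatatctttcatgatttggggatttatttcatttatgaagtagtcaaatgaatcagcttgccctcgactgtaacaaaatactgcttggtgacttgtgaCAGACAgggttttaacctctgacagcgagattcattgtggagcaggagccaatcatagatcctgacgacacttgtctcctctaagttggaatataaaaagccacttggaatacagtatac
Mstn had a single region, chr1:53061319-53064593 over the start and the first part of the gene, marked in 7 lists, and 0 peaks at male day 4. Its start peak held 40.0 tags (32.9 to 48.2) in female vehicle, 35.9 (30.8 to 41.7) at day 4, 11.1 (7.69 to 15.5) on day 6 and 64.7 (57.1 to 73.1) on day 8. In males it held 17.4 (13.1 to 22.6) in vehicle, 23.7 (19.7 to 28.4) at day 6 and 23.7 (18.7 to 29.7) at day 8. Mstn was thus the only one of the genes compared whose start tags at female day 6 were below female vehicle. The density gave another order, with 18.1, 17.7, 22.2 and 23.2 per kb in the female lists and 34.8, 10.5 and 17.2 in male vehicle and at male days 6 and 8, and the peaks were 500 bp at female day 6 and in male vehicle and 1381 bp to 2790 bp elsewhere. Its fold over input in female vehicle, 53.5 (9.41 to 2132), rested on 1 input tag.

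Acvr2b lies on the plus strand at chr9:119401583-119442148 and has 3 starts. Its start was weakly marked where it was marked at all, with a strongest start peak of 9.39 tags (6.88 to 12.5) at female day 4, 61.7 (53.2 to 71.2) on day 6, 42.6 (36.4 to 49.5) on day 8, 25.9 (20.6 to 32.2) in male vehicle and 10.3 (7.08 to 14.5) at male day 8. The stronger mark of Acvr2b lay in an intron and not at the start. A region from 3850 bp after the nearest start, chr9:119406500-119411980, was marked in all 8 lists. There the largest peak held 18.9 tags (14.1 to 24.8) in female vehicle, 100.5 (91.8 to 109.8) at day 4, 295 (276 to 315) on day 6 and 192 (179 to 206) on day 8, and 97.1 (86.5 to 109), 26.6 (16.3 to 41.1), 30.9 (26.2 to 36.1) and 35.8 (29.6 to 43.0) in male vehicle and at male days 4, 6 and 8. In these tags the 3 treated female lists were above female vehicle and the 3 treated male lists below male vehicle. The peaks differed in length too, with 1394 bp in female vehicle and 5480 bp, 4434 bp and 3928 bp at days 4, 6 and 8. In male vehicle and at male days 4, 6 and 8 they were 2798 bp, 1218 bp, 1155 bp and 1797 bp. The gene Xylb overlaps the Acvr2b window, but its start does not lie in it, and no start of another protein-coding gene lay in the window of any of the 10 genes.

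Sqstm1 encodes p62, which carries ubiquitin-tagged cargo to autophagosomes, and Bnip3 a receptor for mitochondrial autophagy. Sqstm1 lies on the minus strand at chr11:50200152-50210820 and had its start base under a peak in all 8 lists. Its density was 31.6, 34.8, 65.5 and 92.7 per kb in the female lists and 52.8, 44.3, 27.5 and 23.8 in the male lists, and it ranked first of the 10 genes in 5 lists and second in male days 6 and 8. Its start peak measured 3679 bp to 4842 bp in 7 lists and 13896 bp at female day 6, where it held 909.8 tags (876 to 944). Bnip3 lies on the minus strand at chr7:138890836-138909506, with densities of 22.6, 22.0, 57.8 and 42.5 in the female lists and 29.9, 24.4, 18.5 and 17.8 in the male lists. Its start peak was 3232 bp, 7600 bp, 4912 bp and 7110 bp in female vehicle and at days 4, 6 and 8. In male vehicle and at male days 4, 6 and 8 it was 2244 bp, 761 bp, 3580 bp and 943 bp. A region about 9 kb upstream of Bnip3 and one in its gene body about 10 kb downstream of the start were each marked in 7 lists.

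The median fold of start density of these genes lay on the same side of 1 as that of all genes at days 6 and 8 and on the other side at day 4, in both sexes. Taking genes with a start peak in both lists, the fold of density over vehicle had a median of 0.985 over all genes and 1.10 over 9 atrophy genes at female day 4, of 2.97 and 2.84 on day 6, and of 1.80 and 2.37 on day 8. In males the medians were 1.05 over all genes and 0.940 over 8 atrophy genes at day 4, 0.574 and 0.542 over 9 on day 6, and 0.614 and 0.587 over 10 on day 8. At female day 6, 7 of 9 genes were at least 2-fold above vehicle, as were 77.9% of all genes, and at day 8 it was 5 of 9, against 38.9%. At female day 4 it was 0 of 9, against 1.0%, and 0 were at least 2-fold lower on any female day (2.15%, 0.0% and 0.0313% of all genes). At least 2-fold below vehicle were 0 of 8 genes at male day 4 (1.53% of all genes), 3 of 9 on day 6 (31.1%) and 2 of 10 on day 8 (24.2%), and 0 were at least 2-fold higher on any male day (3.26%, 0.0% and 0.0136%). The 3 genes at male day 6 were Foxo1, Mstn and Nedd4, and the 2 at male day 8 were Mstn and Sqstm1.

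The genes differed among themselves in how far they left the median gene. At female day 6 the density of Fbxo30 was 7.12-fold that of vehicle (96.9th percentile of genes), that of Foxo3 4.01-fold and that of Foxo1 3.73-fold, while Trim63 was at 1.80-fold (16.0th percentile) and Mstn at 1.23-fold (4.19th). At female day 8 Foxo3 (3.11-fold), Fbxo30 (3.06-fold), Sqstm1 (2.93-fold), Foxo1 (2.48-fold) and Fbxo32 (2.37-fold) lay above the upper quartile of all genes, 2.33-fold, and Mstn (1.28-fold) below the lower quartile, 1.38-fold. In males Mstn was lowest at day 6 (0.301-fold, 2.11th percentile), Foxo3 highest (0.889-fold, 93.7th percentile) and Trim63 next (0.781-fold, 85.6th percentile). Peak length changed at the same time, with a median fold of length over all genes from 2.31 to 2.97 in treated females and from 0.612 to 0.802 in treated males. These are ratios of single lists, so their order between genes has no replicate error.

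**Figure D4:**
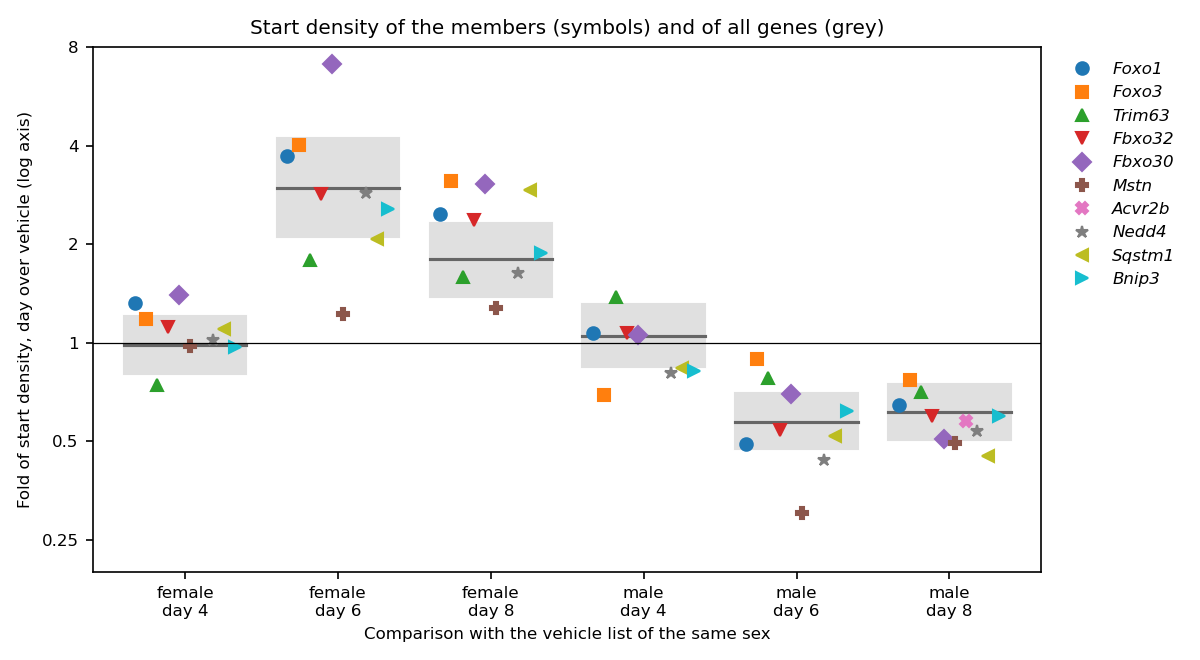
Fold of start density at each day over the vehicle list of the same sex (y axis, log axis) for each gene with a start peak in both lists (symbols), with the median (grey line) and quartiles (grey box) of all such genes. Symbols of females at days 6 and 8 lie above 1 and those of males at days 6 and 8 below 1, as do the medians of all genes.

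The number of peaks at these genes moved in opposite directions in the sexes. Females had 45 peaks in vehicle, 75 at day 4, 116 on day 6 and 98 on day 8, and males had 74 in vehicle, 27 at day 4, 42 on day 6 and 35 on day 8. The mean over all genes was 1.40, 2.78, 5.05 and 3.52 peaks per gene in the female lists and 3.43, 0.820, 1.27 and 0.905 in the male lists, so the direction was that of all genes. By their centers 29 of 45 female peaks were intronic in vehicle, and 55 of 75, 86 of 116 and 70 of 98 at days 4, 6 and 8. Within 5 kb of the starts alone the female counts were 22, 21, 24 and 21, so only day 6 had more peaks than vehicle there. These are numbers of peaks and do not show longer peaks, as at the Trim63 start. With every list reduced to the 17482 peaks of highest score the female counts were 26, 31, 32 and 27 and the male counts 33, 27, 28 and 30.

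Peaks of vehicle muscle were kept at these genes in most cases in females and in a minority of cases in males. Of 45 female vehicle peaks 37 overlapped a peak at day 4, 39 on day 6 and 40 on day 8, where 36.6%, 39.6% and 41.0% of all vehicle peaks did. Of 74 male vehicle peaks 19, 25 and 22 did, where 10.3%, 13.1% and 12.1% of all did. Joined over the 8 lists, the peaks at the 10 genes formed 136 regions, of which 10 were marked in all 8 lists, 62 in a single list, 78 in female lists only, 12 in male lists only and 46 in both sexes. Regions were not formed over all genes, so these counts have no background. The treated female lists were longer as a whole, with 67503, 123249 and 81696 peaks, against 17482, 32188 and 20499 in treated males. The part of list length in the region counts was not tested. The 10 regions marked everywhere were the start regions of Foxo1, Foxo3, Trim63, Fbxo32, Fbxo30, Sqstm1 and Bnip3, both start regions of Nedd4 and the intronic region of Acvr2b.

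Prednisone-responsive enhancers (PREs) are day 4 peaks that overlap no vehicle peak of the same sex. In females 47 of the 75 day 4 peaks at these genes were PREs, or 62.7%, where 81.9% of all female day 4 peaks were. In males 6 of 27 were, or 22.2%, where 45.4% of all were. Female PREs at these genes were seen again at day 6 in 35 of 47 cases (50.3% of all female PREs), at day 8 in 34 (43.6%) and at both days in 30 (37.7%). An overlap of 1 bp counted, and the later lists covered much of some genes with the 10 kb around their starts. Peaks covered 49.2% of this length at Foxo3 and 50.1% at Nedd4 at female day 6, and 43.4% and 54.0% at day 8. The part of this coverage in the overlaps was not tested. Of the 6 male PREs 1 was present at day 6 (5.84% of all male PREs), 2 at day 8 (5.01%) and 1 at both (1.7%). Of the female PREs 36 were intronic, 6 upstream and 4 exonic by their centers, and 1, at Acvr2b, lay over a start. All 6 male PREs were intronic. With every list reduced to its 17482 peaks of highest score, there were 19 female PREs at these genes, 8 of them present at day 8, and 13 male PREs, 4 of them present at day 8. With a fold over input of at least 4, 21 female PREs and 1 male PRE were present at day 8.

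Foxo3 and Nedd4 held most of the PREs, and they also had the longest windows searched, the gene body with 10 kb around its starts. The windows were 104.9 kb at Foxo3, 97.5 kb at Nedd4 and 91.8 kb at Foxo1, and at most 50.6 kb at the other genes. Foxo1, with a window nearly as long, had only 5 female PREs. The part of window length in these counts was not tested. In females Foxo3 had 15 PREs among 18 day 4 peaks and Nedd4 14 among 21, and 9 of each were present at both later days. Acvr2b had 4, all present at both days, and Fbxo32 had 4, of which 3 were. Foxo1 had 5 (1 at both days), Trim63 2, Sqstm1 2 (both at both days for each) and Fbxo30 1, and Mstn and Bnip3 had 0. The highest scores among those kept at both days belonged at Fbxo32 to a peak of 3530 bp, 12900 bp into the gene, with 47.8 tags (41.9 to 54.3), at Trim63 to one of 500 bp, 12550 bp after the start, with 6.33 tags (4.30 to 8.99), and to one of 2007 bp, at -6661 bp, with 27.2 tags (22.7 to 32.2). At Acvr2b they had 9.39 tags over the start, 21.4 (17.5 to 26.0) 22002 bp after it and 8.78 (6.36 to 11.8) 17042 bp after it. At Foxo3 the 3 with the highest scores held 11.8 (8.99 to 15.3), 7.15 (4.98 to 9.94) and 8.58 (6.18 to 11.6) tags, and at Nedd4 21.6 (17.7 to 26.2), 18.2 (14.6 to 22.4) and 7.15 (4.98 to 9.94). In males 1 PRE, in Nedd4, was present at both days, with 13.3 tags (6.38 to 24.5) from 10 counted tags.

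**Figure D5:**
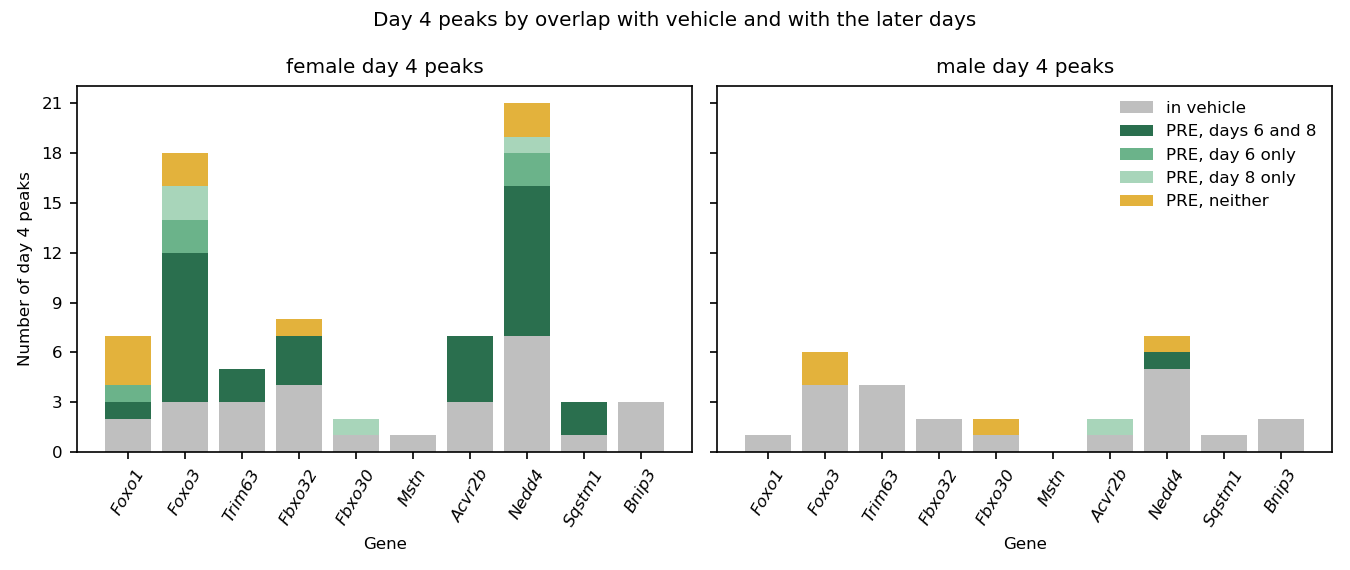
Day 4 peaks at each gene (y axis, number of peaks; left, females; right, males), split by overlap with the vehicle list of the same sex (grey) and, for PREs, by presence at days 6 and 8 (green shades) or at neither (yellow). Foxo3 and Nedd4 had 15 and 14 female PREs, against 2 and 2 male PREs. Over the whole lists there were 55291 female PREs, against 7943 male PREs.

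Beyond the Trim63 promoter, 4 more full-length GRE matches lay in regions marked at these genes, 2 at Foxo3 and 2 at Nedd4. The 3 in introns are shown in windows of 121 bases centered on the match, in the direction of the gene and with matches to the GRE, the half-site pair and the FoxO site in capitals. They are read from the mm10 genome (GRCm38.p6), at chr10:42231097-42231217 (minus strand), chr9:72717294-72717414 (plus strand) and chr9:72746181-72746301 (plus strand).
Foxo3 intron: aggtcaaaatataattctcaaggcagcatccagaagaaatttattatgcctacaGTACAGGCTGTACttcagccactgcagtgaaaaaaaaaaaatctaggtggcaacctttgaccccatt
Nedd4 intron, first site: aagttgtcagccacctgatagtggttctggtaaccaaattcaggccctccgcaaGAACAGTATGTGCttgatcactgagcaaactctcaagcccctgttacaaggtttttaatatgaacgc
Nedd4 intron, second site: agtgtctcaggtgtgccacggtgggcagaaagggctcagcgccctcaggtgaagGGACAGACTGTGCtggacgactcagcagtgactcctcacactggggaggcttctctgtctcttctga
The Foxo3 match lay 45.5 kb after the start and, like the Trim63 match, was under a peak at female days 6 and 8 only, in peaks of 6070 bp with 216 tags and of 8266 bp with 154 tags. This turned on peak edges, since the region around it, chr10:42224617-42233342, was marked in 7 lists. A male day 4 peak of 21.3 tags, chr10:42231205-42231899, lay just beside the match. The first Nedd4 match, 15.1 kb after the nearest start, was under a peak in all 4 female lists and at male days 6 and 8. The tags of those peaks were 12.7, 99.0, 149 and 215 in the female lists and 36.8 and 12.5 at male days 6 and 8. The second Nedd4 match, 44.0 kb after the nearest start, was under a peak at female days 4 and 6 and in male vehicle. The peaks held 5.51 tags at day 4, 41.5 at day 6 and 13.9 in male vehicle. The remaining Foxo3 match lay in an exon and was under a peak at female day 6 only. Per 10 kb of peak, the peaks at the 10 genes held 0.222, 0.138, 0.225 and 0.136 full-length matches in the female lists, where all peaks held 0.212, 0.221, 0.226 and 0.232, and 0.121, 0.0, 0.171 and 0.241 in the male lists, where all peaks held 0.227, 0.157, 0.243 and 0.214. These counts rest on 0 to 5 matches per list. FoxO matches numbered 2.89, 1.79, 1.35 and 1.76 per 10 kb in the female lists, where all peaks held 1.72, 1.38, 1.12 and 1.29. In the male lists they numbered 1.57, 1.53, 2.05 and 2.41, where all held 1.14, 1.06, 1.73 and 1.32. The peaks at these genes thus held more of them per length in each list, a difference that was not tested. It was not particular to FoxO. Matches to the site of MEF2 transcription factors were also above all peaks in each list but male day 6 (0.171 against 0.378). The half-site pair was above all peaks in each list but male day 4 (1.91 against 2.19) and male day 6 (3.42 against 3.43). The lists share many sites, so they are not independent counts, and male day 4 held 4 FoxO matches. These are descriptions of sequence and do not show that a factor was bound.

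Other genes of these pathways were marked at their starts in fewer lists in most cases. In the FoxO and PI3K branch 4 of 10 genes had a start peak in all 8 lists, where 8 of the 10 atrophy genes and 17.1% of all genes had one, among them Akt2, a kinase that keeps FoxO factors out of the nucleus, and Eif4ebp1, a brake on translation. The list counted 5, 10, 10 and 10 marked genes in female vehicle and at days 4, 6 and 8 and 9, 8, 6 and 9 in the male lists. For this and the other pathway lists, the share of all genes with a start peak was 30.2%, 54.3%, 69.3% and 62.1% in the female lists and 55.7%, 32.0%, 32.4% and 35.4% in the male lists. The FoxO paralogs Foxo4 and Foxo6 were marked in 5 lists each, whereas Foxo1 and Foxo3 were marked in 8. Foxo4 density was 10.2, 12.3, 22.7 and 20.9 in the female lists and 24.0 at male day 4.
Of 16 other ubiquitin ligases and related genes of atrophy 6 were marked in all 8 lists, among them Asb2 and Cblb, the ligase that acts on the insulin receptor substrate, with 9, 15, 16 and 16 in the female lists and 15, 9, 11 and 9 in the male lists. Fbxo21 and Smurf1 were marked in 3 lists each. The start density of Cblb was 118 per kb at female day 6, where that of Fbxo30 was 133.
Of 12 autophagy and mitophagy genes 4 were marked in all 8 lists, among them Gabarapl1 and Map1lc3b, which encode autophagosome membrane proteins, with 9, 12, 12 and 12 in the female lists and 12, 8, 10 and 8 in the male lists. Bnip3l, the paralog of Bnip3, was marked in 5 lists.
Of 12 genes of the myostatin and activin branch 3 were marked in all 8 lists, among them the receptors Acvr1b and Bmpr1a, with 4, 7, 12 and 11 in the female lists and 10, 4, 6 and 7 in the male lists. Among the secreted ligands and inhibitors, Gdf11, the closest relative of myostatin, had a start peak in 1 list (female day 6, 12.96 per kb), Fstl3 in 2, Fst, Inhba and Inhbb in 3 each, Wfikkn2 in 5 and Fstl1 in 6, where Mstn had one in 7.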

How the data were processed

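According to the study's methods, homerTools removed adaptors, Bowtie2 (2.2.6 in the submitters' processing notes, which also list TopHat2 2.1.0) mapped the reads to mm10, and the authors called peaks with HOMER findPeaks in histone style with a fold over input of at least 2. The way in which each pair of H3K27ac libraries became 1 list is not given in the sources used here. The 8 deposited lists give per peak a normalized tag count, which is a signal that the authors scaled to 10 M tags, the deposited H3K27ac and input tag counts (unscaled H3K27ac tags in 2 lists), a findPeaks score as deposited and a ratio, the deposited fold over input. Input tags of 0 are written as 0.5. The authors' p-values were not used.

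Depth was recovered from the steps between low normalized tag counts, and tags and exact Poisson 95% intervals from depth. Fold intervals are Clopper-Pearson and were not made for the 2 lists with scaled input. Starts and exons came from RefSeq GRCm38.p6, the same build as mm10. Promoters of 9 of the 10 genes were found in the RefSeq promoter table (not Fbxo32), and all 10 sequences matched the genome. A start peak overlapped 1 kb on either side of any RefSeq start, and start density was the tags of all start peaks over their summed length.

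All 10 genes were described. The peaks picked out for them were the strongest start peak by score, regions marked in all 8 lists and up to 3 PREs per gene kept at both later days. Values are not printed for all of these peaks. Those left out include the kept PREs of Foxo1 and Sqstm1 and the lower-scoring ones of Fbxo32. In each pathway list, the 2 genes marked in most lists and the 2 in fewest were named, except for 1 item that is not reported here, and Fst, Fstl1, Inhba, Inhbb, Wfikkn2 and the Cblb density were singled out after their values were seen. Genes and lists were chosen with earlier results of these data known. With 1 list per group no test was made. Overlap, depth and motif steps were tested on simulated lists. The work used pandas 2.3.3 and numpy 2.4.6 for tables, pysam 0.24.0 for sequence, scipy 1.17.1 for intervals and matplotlib 3.10.9 for plots, in Python 3.11.15.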

Additional observations from a re-analysis of the deposited data

Results flagged for a closer look

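The number of peaks at the 10 genes moved in opposite directions in females and males at each day, a difference between the sexes that was not tested, since each group had 1 list. Against vehicle, females had 30 more peaks at day 4, 71 more at day 6 and 53 more at day 8. In males the number fell by 47 (from 74, a change of -47) at day 4, by 32 (-32) at day 6 and by 39 (-39) at day 8. The whole lists moved the same way, so the direction is not particular to these genes. All peaks numbered 38861 in female vehicle and 67503, 123249 and 81696 at days 4, 6 and 8. In males they numbered 87600 in vehicle and 17482, 32188 and 20499 at days 4, 6 and 8. The list of lowest depth in each sex, female vehicle (27.5 M tags) and male day 4 (7.52 M), was also the one with the fewest peaks at these genes, 45 and 27. The list of highest depth, male day 6 (50.5 M), had 42. In females the list of highest depth, day 4 (49.0 M), had 75, whereas day 6 (30.6 M) had 116. The part of depth in these differences was not tested.

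The median fold of start density over the genes was also on opposite sides of 1 in the sexes, again untested. It was 1.10 in females and 0.940 in males at day 4, 2.84 and 0.542 at day 6, and 2.37 and 0.587 at day 8. The medians over all genes were 0.985 and 1.05 at day 4, 2.97 and 0.574 at day 6, and 1.80 and 0.614 at day 8, so at days 6 and 8 these genes lay on the side of the median gene.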

How the results depend on the processing

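No paired analysis was possible because each group has 1 peak list for its 2 libraries, and leaving out a replicate could not be run for the same reason. Counting only within 5 kb of starts gave 22, 21, 24 and 21 peaks in female vehicle and at days 4, 6 and 8, and 30, 17, 21 and 18 in the male lists. The rise in the number of female peaks was thus lost and the male fall kept. A number of peaks does not show longer peaks. At Trim63, 2 start peaks of 500 bp in female vehicle were a single peak of 13678 bp at day 6. The summed tags at starts, given below, were above vehicle in females. Lists were cut to equal length by score, which did not follow the tags of a peak, so strong peaks could be dropped. At equal list length the peak counts were 26, 31, 32 and 27 in females and 33 in male vehicle, members with a start peak 6 and 5 at female days 6 and 8, female PREs 19 and 8 at day 8, and male PREs 13 and 4 at day 8. Taking the start base itself, 3 members were marked in female vehicle. A fold over input of at least 4 left 5 members at male day 6, 21 female PREs at day 8 and 1 male PRE at day 8, and 50% coverage gave 11 male PREs. Without Nedd4, an alternative chosen after seeing the data, male day 6 had 25 peaks. Other alternatives chosen after seeing the data changed the start fold. By summed tags it was 2.91, 10.9 and 8.12 in females, and divided by the median gene it turned to 0.957 at female day 6 and was 1.32 at day 8, and 0.943 and 0.955 at male days 6 and 8. Of 112 alternative values 80 stayed within 1.5 times the value reported, and the causes of the others were not tested. Male day 4 had 7.52 M tags, and whether peaks missing there were missed for depth was not tested, so they are not shown to be absent.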
